A study of Rattus norvegicus with 12 samples.

Results

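The genes described here are secreted CCN proteins and targets and regulators of the stretch-sensitive YAP pathway in the rat lung. They comprised Ccn1, Ccn2, Ccn3, Ankrd1, Amotl2, Yap1, Lats2 and Tead1, and a gene was included through each probe set that the array's annotation gives to it alone. Of these 8 genes, 7 had such a probe set, with 9 probe sets in all, among 14217 genes so named on the array; Yap1 was not analysed here. Right lungs of rats were measured on 12 Affymetrix arrays, 3 in each of 4 groups. SS HTV lungs came from Dahl Salt Sensitive (SS) rats put on ventilation that the labels call HTV, an abbreviation they leave unexplained. SS control lungs came from control rats of that strain, BN HTV lungs from ventilated Brown Norway rats and BN control lungs from control Brown Norway rats. All animals weighed 250 to 350 g, all arrays carry a description that mentions room air, and the pulmonary vessels of all animals were flushed with buffered saline before the right lung was frozen. The labels do not say whether control animals were on a ventilator, for how long HTV lasted, or the animals' age. Titles end in a separate code for each array, and do not say what the code stands for. If each code is an animal, the p-values measure the spread between arrays of different animals. RNA came from whole lung, so fewer cells of a type and less RNA per cell cannot be told apart.

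YAP and its relative TAZ (gene Wwtr1) are transcription coactivators that move into the nucleus when cells are stretched or spread, and there bind TEAD factors on DNA. The kinases LATS1 and LATS2 phosphorylate YAP and keep it in the cytoplasm, and proteins of the angiomotin family, to which Amotl2 belongs, bind and hold it there. Ccn1, Ccn2 and Ankrd1 are among the best known genes switched on by YAP with TEAD, and Amotl2 and Lats2 are targets that also act back on the pathway. CCN1 and CCN2 are secreted matrix-associated proteins that bind integrins, and both are known to respond to mechanical load and injury in lung.

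The promoters are shown because GGAATG, the core letters that TEAD factors bind, is the sequence through which YAP and TEAD are known to act on their targets. Of the 8 genes, 4 have an entry in the RefSeq promoter table for rat assembly GRCr8, whose DNA is of the Brown Norway strain. The 250 bases before the annotated start were searched on both strands for GGAATG, for the AP-1 letters TGANTCA and for the CArG box that serum response factor binds. The sequences below run 5′ to 3′ on the gene's strand, with GGAATG or its reverse complement CATTCC in capitals. The Ccn1 window is chr2:237225690-237225939 (minus strand), the Ccn2 window is chr1:22624615-22624864 (minus strand), and the Amotl2 line is the 30 bases around its match, chr8:112182538-112182567 (plus strand).
Ccn1: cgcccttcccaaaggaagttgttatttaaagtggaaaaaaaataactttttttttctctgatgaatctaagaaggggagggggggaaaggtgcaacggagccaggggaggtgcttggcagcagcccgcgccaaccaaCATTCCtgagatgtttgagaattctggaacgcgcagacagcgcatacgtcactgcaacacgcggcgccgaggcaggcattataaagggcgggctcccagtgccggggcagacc
Ccn2: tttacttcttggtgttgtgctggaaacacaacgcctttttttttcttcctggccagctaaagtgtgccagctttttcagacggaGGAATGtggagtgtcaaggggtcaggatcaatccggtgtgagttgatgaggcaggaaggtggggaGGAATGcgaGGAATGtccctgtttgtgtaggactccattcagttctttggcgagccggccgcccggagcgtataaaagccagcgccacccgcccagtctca
Amotl2: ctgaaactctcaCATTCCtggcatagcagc

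Ccn1 held 1 match, on the opposite strand, 113 to 108 bases before the start. Ccn2 held 3 matches on the gene's own strand, at 166 to 161, 101 to 96 and 92 to 87 bases before the start, so that the last 2 lie close together. Amotl2 held 1 match on the opposite strand, 76 to 71 bases before the start, and the Yap1 window held 1 on the gene's strand, 116 to 111 bases before it. All 4 windows thus held GGAATG, which 12.1% of the 33469 windows in the table hold, and 3 or more matches, as in Ccn2, were found in 0.0777% of them. Neither TGANTCA (6.34% of all windows) nor the CArG box (1.5%) was matched in the 4 windows. A match describes letters and is not evidence of binding.

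**Figure D1:**
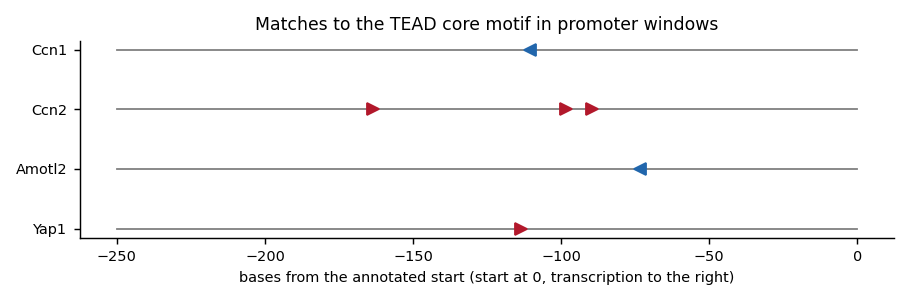
Positions of GGAATG matches in the 250 bases before the annotated start of Ccn1, Ccn2, Amotl2 and Yap1. The horizontal axis is the distance from the start in bases, and triangles point right for the gene's strand and left for the opposite strand. Ccn2 carries 3 matches and the other 3 genes carry 1 each.

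Intensities are the linear values that the authors deposited, which had the same trimmed mean on each array. Correlations between arrays were 0.882 to 0.98, and the 7 type 2 cell markers, such as surfactant proteins, that a lung should hold had a summed intensity of 15689.7 to 23387.2. The array SS control 3 stood apart: at 36 probe sets where the other arrays of the strains were over 1.5 log2 units apart, it lay past the midpoint towards BN at 13, against 0 for each of the other 11 arrays at their own such probe sets. The log2 ratio of 5′ to 3′ beta-actin signal, a sign of RNA integrity, was -1.40 to -0.23 in SS arrays and -1.46 to -0.88 in BN arrays. With this ratio as a covariate, 5 of the 6 member strain calls remained, and that of Ankrd1 1367664_at was lost (limma adjusted p = 0.136). Member calls that change without SS control 3 are given with that value. Tests were made with limma on log2(intensity + 16) over 18625 probe sets whose mean intensity was at least 43.6, and a difference passed at an adjusted p (Benjamini-Hochberg over all of them) below 0.05.

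With HTV in BN lungs, Ccn1 rose and Amotl2 fell, so 1 of 9 member probe sets was called higher and 1 lower, where 3.0% and 2.86% of all probe sets were called (5.86% in either direction). With HTV in SS lungs, Amotl2 fell and no member rose, so 0 of 9 were called higher and 1 lower, beside 3.9% and 4.16% of all probe sets (8.05% in either direction). The groups did not overlap at 3 of the 9 probe sets in SS lungs (29.8% of all) and at 3 in BN lungs (26.6% of all), which is near the background. At an unadjusted p below 0.05 there were 2 of 9 in SS lungs (25.3% of all) and 4 of 9 in BN lungs (19.9% of all). The median HTV difference of the 9 probe sets was -0.11 in SS and 0.26 in BN lungs, where all probe sets had -0.01 and -0.03. No member's HTV change differed between the strains past the test (0 of 9), as for all probe sets (0.0%), and at an unadjusted p below 0.05 limma found 1 member, Ccn1, and 1547 probe sets (8.31%).

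Between the strains, members were lower in SS lungs wherever the test passed. Ccn1 passed the filter through its BN arrays alone, so at its SS level it could be tested only if it was brighter in BN lungs. Its calls therefore say nothing on which direction members take. The 9 probe sets also count Ankrd1 and Tead1 at 2 probe sets each. In HTV lungs 4 of 9 probe sets (Ccn1, Ccn2, Amotl2 and a probe set of Ankrd1) were lower in SS and 0 were higher, beside 4.47% and 3.9% of all probe sets (8.37% in either direction). In control lungs 2 of 9 (Ccn1 and a probe set of Tead1) were lower in SS and 0 higher, beside 6.43% and 5.9% of all (12.3% in either direction). The arrays of the strains did not overlap at 4 of 9 in HTV lungs (29.4% of all) and at 4 of 9 in control lungs (33.2% of all). At an unadjusted p below 0.05 there were 6 of 9 in HTV lungs (23.4% of all) and 3 of 9 in control lungs (29.0% of all). The median member difference, SS minus BN, was -0.54 in HTV lungs and -0.26 in control lungs, against 0.01 and -0.02 over all probe sets.

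**Figure D2:**
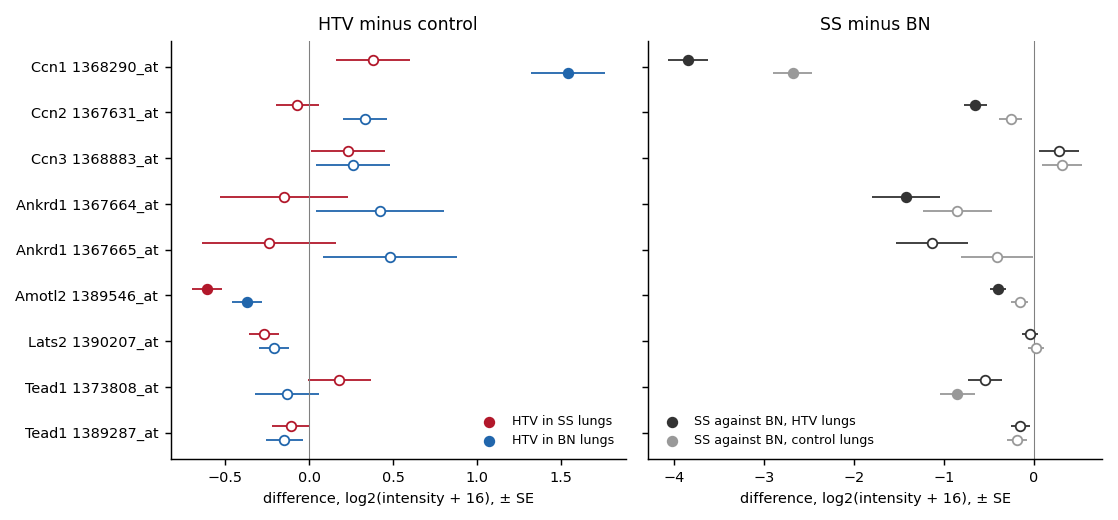
Differences of the 9 member probe sets in log2(intensity + 16), with limma's SE as bars; the left panel is HTV minus control in each strain and the right panel SS minus BN in HTV and in control lungs. Filled points passed at an adjusted p below 0.05: 3 on the left (Ccn1 in BN, Amotl2 in both strains) and 6 on the right, all of them below 0. Ccn1, among these 6, entered the test through its BN arrays alone.

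Ccn1, which encodes a secreted integrin ligand induced early by serum and stretch, had the largest strain differences of the 9 probe sets and the largest HTV difference in BN lungs, and its signal in SS lungs was near background. The SS HTV lungs had intensities of 22.9, 26.1 and 22.2 (23.7 ± 2.1, SD, n = 3) and the SS control lungs 10.4, 28.2 and 8.4 (15.7 ± 10.9). The BN HTV lungs had 627.3, 428.5 and 630.9 (562.2 ± 115.8) and the BN control lungs 169.1, 226.5 and 152.4 (182.7 ± 38.9). All 6 SS arrays lay below the filter's intensity of 43.6 and all 6 BN arrays above it, and every BN HTV array exceeded every BN control array, while the SS groups overlapped. Bacterial Trp control probe sets, which have no rat target, read 0.3 to 4.0 on the same arrays. Detection calls were not used here, so how far the SS values stand above background is unknown.

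In BN lungs the Ccn1 mean was 3.08 times as high with HTV, a difference of 1.54 ± 0.22 (limma log2 difference ± SE, adjusted p = 0.0015). It stayed between 1.34 and 1.72 over 23 alternatives, with an adjusted p of 0.000169 to 0.0139. In SS lungs the difference was 0.38 ± 0.22 (adjusted p = 0.308), between values that are all dim. It was 0.65 without SS control 2 (adjusted p = 0.0789), 0.22 without SS control 3 and 0.17 with array weights, and 0.75 and 0.15 at pseudocounts of 1 and 64, and passed in none of the alternatives. The difference of the HTV changes, SS minus BN, was -1.16 ± 0.32 (unadjusted p = 0.00269, adjusted p = 0.53), the 83rd smallest p of 18625, so a smaller change in SS lungs was not established.

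Ccn1 was lower in SS than in BN lungs by -3.84 ± 0.22 with HTV (adjusted p = 3.63e-07) and by -2.68 ± 0.22 in controls (adjusted p = 1.35e-05). These were the 7th and the 14th lowest of 18625 differences. Because the SS values are near background, the size depends on the pseudocount: it was -4.49 and -2.82 with HTV and -3.63 and -1.63 in controls at pseudocounts of 1 and 64, and passed at each of these. The probe set passed the filter through its BN arrays alone, so a gene this dim in SS lungs could be tested only if it was brighter in BN lungs. Ccn1 has 1 probe set on this array, so the difference has no other probe set to be set beside. SS control 3, at 8.4, read low for Ccn1 like the other SS arrays.

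**Figure D3:**
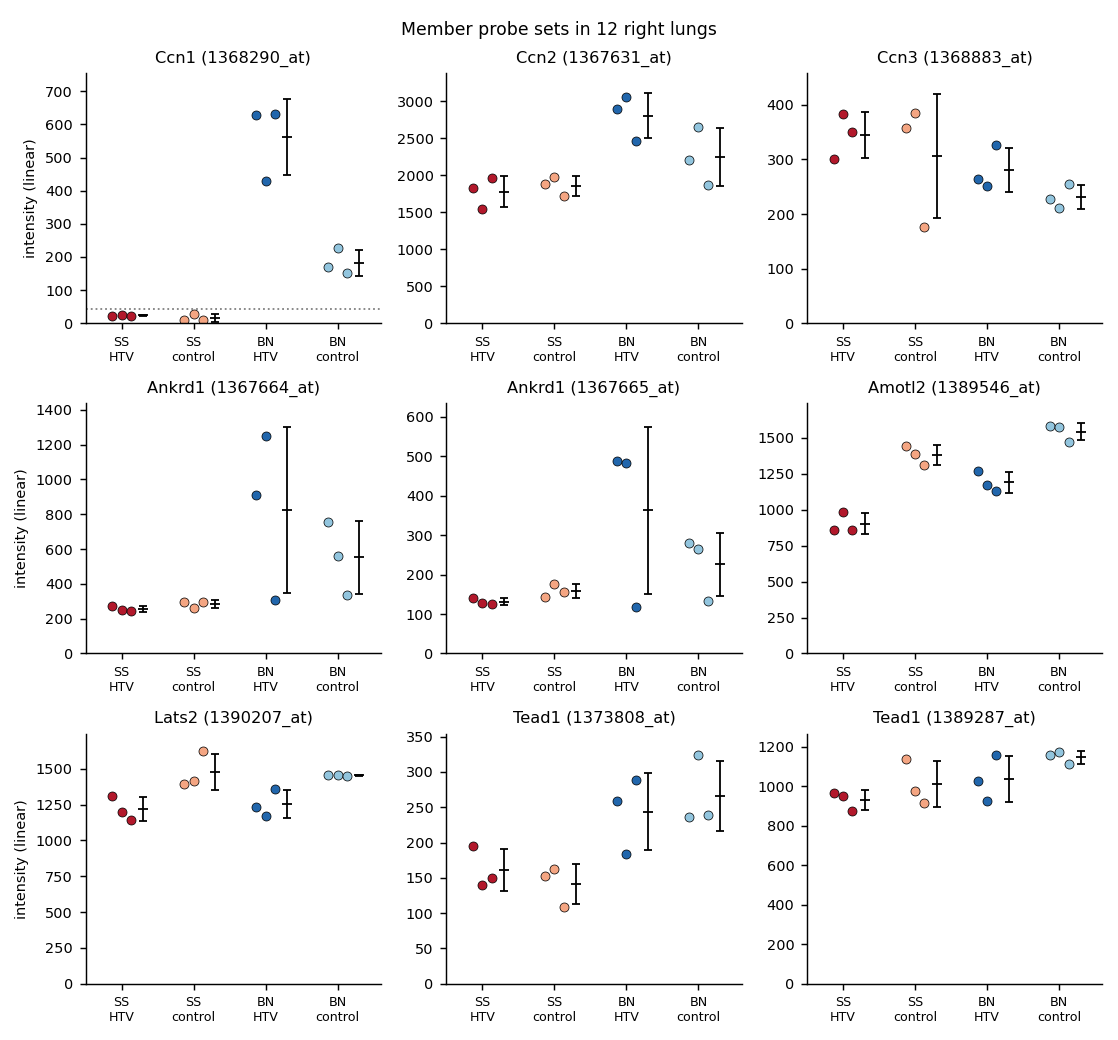
Linear intensity of the 9 member probe sets in the 12 lungs, with a panel for each probe set; points are arrays and bars the group mean ± SD (n = 3), from left SS HTV, SS control, BN HTV and BN control. The dotted line in the Ccn1 panel is the filter's 43.6, with all 6 SS arrays below it, and the Ankrd1 panels show BN HTV 3 apart from the other BN HTV arrays.

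Ccn2, connective tissue growth factor, which promotes matrix deposition in lung fibrosis, was bright in all groups. It had 1832.4, 1542.4 and 1958.8 in SS HTV lungs, against 1883.3, 1969.2 and 1713.2 in SS control lungs. It had 2897.5, 3049.4 and 2462.9 in BN HTV lungs, against 2208.4, 2646.2 and 1869.2 in BN control lungs. The 3 BN HTV arrays were above all SS HTV arrays, and HTV and control overlapped within each strain. The HTV difference was -0.07 ± 0.13 in SS lungs (limma adjusted p = 0.787) and 0.33 ± 0.13 in BN lungs (adjusted p = 0.187), and the difference of these changes was -0.39 ± 0.19 (adjusted p = 0.609).

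With HTV, Ccn2 was lower in SS than in BN lungs by -0.65 ± 0.13 (limma adjusted p = 0.00932). Without the array SS HTV 2, the lowest of its group, this was -0.56 (adjusted p = 0.0546), and over all alternatives the adjusted p was 0.00633 to 0.0546. In control lungs the strain difference was -0.26 ± 0.13 (adjusted p = 0.218), with overlap.

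Ccn3, a CCN protein known to oppose some CCN2 actions, passed no comparison. It had 299.9, 383.4 and 349.7 in SS HTV lungs, against 357.9, 384.4 and 175.5 in SS control lungs, and 264.1, 250.7 and 327.3 in BN HTV lungs, against 227.5, 210.6 and 255.1 in BN control lungs. SS control 3 was the lowest of the 12 arrays and the only SS array within the BN range of control lungs or below it. SS minus BN in control lungs was 0.31 ± 0.22 (limma adjusted p = 0.375), and without SS control 3 it was 0.65 (adjusted p = 0.012). The HTV differences were 0.23 ± 0.22 in SS lungs (adjusted p = 0.551; -0.11 without SS control 3 and -0.02 with array weights) and 0.26 ± 0.22 in BN lungs (adjusted p = 0.583).

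Of the 3 other CCN genes, Ccn5, which lacks the C-terminal domain of its relatives, averaged 391.8 ± 46.9 in SS HTV lungs and 438.5 ± 113.2 in SS control lungs. It averaged 445.5 ± 15.8 in BN HTV lungs and 402.0 ± 127.4 in BN control lungs (SD, n = 3 each), and its HTV differences were -0.13 ± 0.22 (limma adjusted p = 0.735) and 0.19 ± 0.22 (adjusted p = 0.686). Ccn4 and Ccn6 fell below the filter, with means over the 12 arrays of 31.3 and 22.6, and were not tested. Among the 4 CCN genes tested, Ccn1 was the only one that passed with HTV, in BN lungs.

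Ankrd1, a muscle ankyrin repeat protein and YAP target that is most abundant in heart, has 2 probe sets, which followed each other over the 12 arrays (r = 0.951). The probe set 1367664_at had 273.4, 249.1 and 243.1 in SS HTV lungs, against 297.9, 259.5 and 296.7 in SS control lungs. It had 913.1, 1251.9 and 308.4 in BN HTV lungs, against 755.9, 561.7 and 338.5 in BN control lungs. The SS arrays lay close together and the BN arrays were spread widely, with BN HTV 3 below every BN control. The probe set 1367665_at had 141.5, 128.0 and 125.5 in SS HTV lungs and 142.5, 176.5 and 155.8 in SS control lungs. It had 487.8, 483.8 and 118.7 in BN HTV lungs and 279.5, 265.0 and 133.1 in BN control lungs, so BN HTV 3 was here the lowest of the 12 arrays, and the SS HTV arrays all lay below the SS control arrays.

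No HTV difference of Ankrd1 passed over all arrays. In SS lungs they were -0.15 ± 0.38 and -0.24 ± 0.40 for the 2 probe sets (limma adjusted p = 0.836 and 0.746), and in BN lungs 0.42 ± 0.38 and 0.48 ± 0.40 (adjusted p = 0.604 and 0.563). Without BN HTV 3 the BN differences were 1.01 (adjusted p = 0.0337) and 1.12 (adjusted p = 0.0155), so this array decides the call. With HTV, SS minus BN was -1.42 ± 0.38 for 1367664_at (adjusted p = 0.0366) and -1.13 ± 0.40 for 1367665_at (adjusted p = 0.102). The call of 1367664_at was lost in 8 of 23 alternatives (adjusted p from 0.000622 to 0.151), and without BN HTV 3 the values were -2.00 (adjusted p = 0.000694) and -1.77 (adjusted p = 0.00107). In control lungs the strain differences were -0.85 ± 0.38 (adjusted p = 0.161) and -0.41 ± 0.40 (adjusted p = 0.525), and -0.85 (adjusted p = 0.0282) for 1367664_at without BN HTV 3.

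Heart muscle transcripts moved with Ankrd1 among the BN arrays. Of 13 cardiac muscle genes such as Tnnt2 (cardiac troponin T) and Myl4 (atrial myosin light chain), 11 were tested, and their summed intensity was 317.8 to 1551.4 in SS HTV lungs, 219.5 to 715.8 in SS control lungs, 1423.6 to 5362.5 in BN HTV lungs and 1540.9 to 3452.4 in BN control lungs. In HTV lungs 5 of 11 were lower in SS than in BN lungs (Tnnt2, Myl4, Ttn, Ryr2 and Mb; median -1.88) and in control lungs 9 of 11 (median -2.14), where 3.27% and 5.16% of all genes were lower. Tnnt2 averaged 48.2 in SS HTV and 355.3 in BN HTV lungs, and 20.4 in SS control and 180.3 in BN control lungs. HTV changed 0 of 11 in either strain by limma, with 1 at an unadjusted p below 0.05 in SS and 2 in BN lungs. The BN array with the lowest cardiac level was BN HTV 3, at a mean of 7.04 on the log2(intensity + 16) scale, and the highest was BN HTV 2, at 8.78. BN HTV 3 also differed in neutrophil markers, with a summed intensity of 2840.2 against 8032.8 in BN HTV 1 and 7786.3 in BN HTV 2.

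Within the 6 BN arrays, the log2 level of 1367664_at rose with the mean cardiac level (Pearson r = 0.971, exact permutation p = 0.0028, adjusted 0.0112 over 4 relations; Spearman rho = 1.0, p = 0.0028, adjusted 0.0112), and r was 0.95 without BN HTV 2 and BN HTV 3. For 1367665_at r was 0.901 (exact permutation p = 0.0056, adjusted 0.0112) and rho 0.943 (p = 0.0167, adjusted 0.0334), with r = 0.851 without the same arrays. Within the 6 SS arrays r was 0.183 (exact permutation p = 0.7056) and -0.429 (p = 0.3944), with rho 0.257 and -0.371, and r was 0.072 and -0.146 without SS HTV 1 and SS control 2. Ankrd1 in SS lungs thus showed no detectable relation, over cardiac levels that were mostly lower. These correlations were also added after the data were seen, and their permutations did not keep HTV and control arrays apart. The probe sets followed each other, so the 4 relations are not independent. In a fit with the cardiac level as a covariate, added after the data were seen, SS minus BN in HTV lungs was -0.42 ± 0.40 (limma adjusted p = 0.75) and -0.29 ± 0.48 (adjusted p = 0.887), and the HTV difference in BN lungs was 0.15 ± 0.29 and 0.25 ± 0.35. In the same fit the HTV difference in SS lungs was -0.56 ± 0.30 (adjusted p = 0.311) and -0.59 ± 0.37 (adjusted p = 0.384), and SS minus BN in control lungs was 0.29 ± 0.43 (adjusted p = 0.807) and 0.56 ± 0.52 (adjusted p = 0.688), of the other sign than without the covariate. This fit used a common slope for both strains, although the relation was seen among BN arrays only. Mean cardiac levels were 4.98 to 7.13 in SS arrays and 7.04 to 8.78 in BN arrays, with almost no overlap. The fit therefore cannot separate strain from cardiac level, and what part heart muscle has in the strain difference was not tested.

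**Figure D4:**
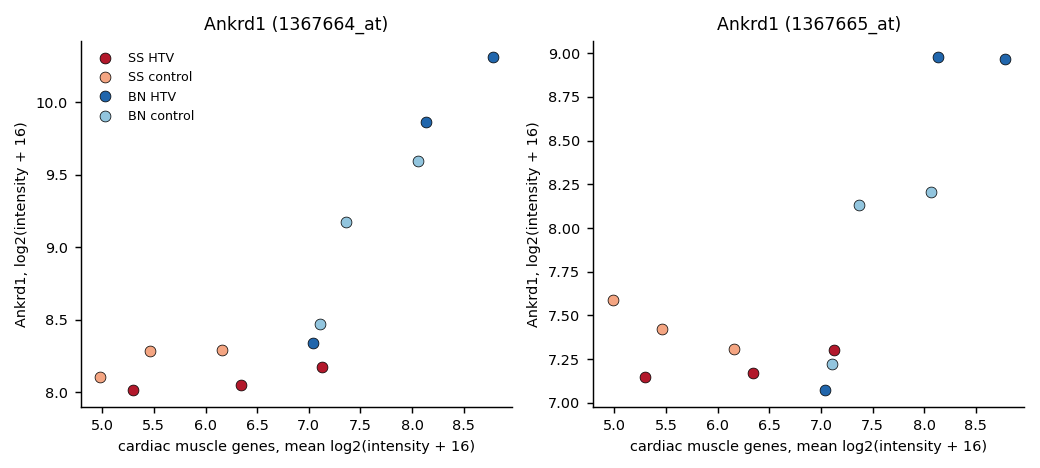
Log2(intensity + 16) of the 2 Ankrd1 probe sets (vertical axes) against the mean of 11 cardiac muscle genes on the same scale (horizontal axes) in the 12 lungs, coloured by group. The BN arrays run upwards together (r = 0.971 and 0.901, n = 6), and the SS arrays stay level.

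Amotl2, the angiomotin-like protein that binds YAP and is also its target, fell with HTV in both strains. It had 858.9, 985.7 and 860.7 in SS HTV lungs, against 1442.6, 1387.8 and 1307.3 in SS control lungs. It had 1271.4, 1169.1 and 1129.1 in BN HTV lungs, against 1581.1, 1571.2 and 1473.4 in BN control lungs. Every HTV array lay below every control array of its strain, and the order of the group means was BN control, SS control, BN HTV and SS HTV from high to low. The difference was -0.61 ± 0.09 in SS lungs (limma adjusted p = 0.00143), a mean 0.654 times that of controls, and over 23 alternatives it was -0.67 to -0.57 and passed in each (adjusted p = 0.00044 to 0.0172). In BN lungs it was -0.37 ± 0.09 (adjusted p = 0.0287), a mean 0.772 times that of controls.

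The BN call of Amotl2 was lost in 7 of 23 alternatives, although the difference stayed between -0.42 and -0.33 in all 23. The 7 were fits with median centring (limma adjusted p = 0.0504), without an intensity trend (0.0567), without BN HTV 2 (0.0848) or BN HTV 3 (0.0837), and without BN control 1 (0.101), BN control 2 (0.096) or BN control 3 (0.0603). The change in SS minus the change in BN was -0.24 ± 0.13 (adjusted p = 0.646), so a larger fall in SS lungs was not established. With HTV, Amotl2 was lower in SS than in BN lungs by -0.40 ± 0.09 (adjusted p = 0.0167). That call was lost without SS HTV 3 (adjusted p = 0.0702) or without BN HTV 1 (adjusted p = 0.0714). In control lungs the strain difference was -0.16 ± 0.09 (adjusted p = 0.259), although the strains' arrays did not overlap.

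Lats2, the kinase that inactivates YAP and is itself a YAP target, was lower in every HTV array than in every control array of its strain, and passed the test in neither. It had 1310.9, 1200.9 and 1142.4 in SS HTV lungs, against 1391.4, 1418.3 and 1622.5 in SS control lungs. It had 1234.7, 1170.6 and 1359.7 in BN HTV lungs, against 1456.4, 1459.2 and 1450.6 in BN control lungs. The HTV difference was -0.27 ± 0.09 in SS lungs (limma adjusted p = 0.0902) and -0.21 ± 0.09 in BN lungs (adjusted p = 0.222). The SS difference passed with quantile normalization (adjusted p = 0.0445) and with the beta-actin ratio as a covariate (adjusted p = 0.0489). The strains overlapped, at differences of -0.04 ± 0.09 with HTV and 0.02 ± 0.09 in controls.

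Tead1, a DNA-binding partner of YAP, has 2 probe sets (r = 0.723 over the 12 arrays). The dimmer, 1373808_at, had 195.5, 139.3 and 150.1 in SS HTV lungs and 152.6, 162.8 and 108.7 in SS control lungs, and 259.2, 183.3 and 289.2 in BN HTV lungs and 236.1, 323.5 and 239.6 in BN control lungs. HTV and control overlapped in both strains, and all 3 SS control arrays lay below all 3 BN control arrays. In control lungs it was lower in SS by -0.85 ± 0.19 (limma adjusted p = 0.0146), and by -0.71 without BN control 2 (adjusted p = 0.079). With HTV the strain difference was -0.54 ± 0.19 (adjusted p = 0.106).

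The other Tead1 probe set, 1389287_at, had 965.7, 948.9 and 872.5 in SS HTV lungs and 1138.3, 975.8 and 912.5 in SS control lungs, and 1023.6, 925.7 and 1155.4 in BN HTV lungs and 1157.0, 1172.0 and 1110.2 in BN control lungs. Its strain difference in control lungs was -0.19 ± 0.11 (limma adjusted p = 0.26), and SS control 1 lay within the BN range. The 2 probe sets of Tead1 thus disagreed on the strain call. HTV differences of both were within -0.15 and 0.18 and none passed. Wwtr1, which encodes TAZ, averaged 118.6 ± 19.3 in SS HTV lungs and 133.3 ± 36.2 in SS control lungs, and 103.1 ± 10.3 in BN HTV lungs and 144.7 ± 30.1 in BN control lungs (SD, n = 3 each), with an HTV difference in BN lungs of -0.42 ± 0.19 (adjusted p = 0.239).

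Among other targets of YAP and TAZ, F3, Nuak2 and Gadd45a rose with HTV in both strains. Of 22 listed targets, 5 of them members, 21 were tested. In SS lungs 4 of 21 rose (F3, Nuak2, Gadd45a and Dock5) and 1 fell (Amotl2), with a median of 0.16, where 3.92% of all 10554 genes rose, 4.12% fell and the median was -0.01. In BN lungs 4 of 21 rose (Ccn1, F3, Nuak2 and Gadd45a) and 1 fell (Amotl2), with a median of 0.09, where 2.99% of all genes rose, 2.69% fell and the median was -0.03. Without the members, 4 of 16 rose in SS lungs and 3 of 16 in BN lungs and 0 fell, at medians of 0.18 and 0.06.

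F3, tissue factor that starts coagulation, averaged 1332.3 in SS HTV and 498.2 in SS control lungs, and 1365.6 in BN HTV and 413.5 in BN control lungs. Its differences were 1.45 ± 0.21 in SS (limma adjusted p = 0.00141) and 1.67 ± 0.21 in BN lungs (adjusted p = 0.000611). Nuak2, a kinase related to AMPK, differed by 1.31 ± 0.29 and 1.11 ± 0.29, and Gadd45a, a DNA damage response gene, by 0.98 ± 0.20 and 0.89 ± 0.20 in SS and BN lungs. Between the strains in HTV lungs, the 4 targets lower in SS were the members Ccn1, Ccn2, Ankrd1 and Amotl2, and by limma 0 of the 16 other targets passed (1 at an unadjusted p below 0.05), with a median of 0.19. In control lungs Dock5 was lower in SS by -0.39 ± 0.09 (adjusted p = 0.0185).

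Listed genes of the Hippo pathway had mostly negative HTV differences, few of which passed. The list held the kinase cascade that restrains YAP and the angiomotins, and also TAZ, TEAD factors and TEAD cofactors. Of 26 listed, 23 were tested, and in SS lungs 0 rose and 3 fell (Amot, Amotl2 and Vgll3; 4.12% of all genes), with a median of -0.11. In BN lungs 0 rose and 2 fell (Amotl2 and Vgll4; 2.69% of all genes), with a median of -0.20. Without the members 2 of 20 fell in SS and 1 of 20 in BN lungs. Amot, the founding angiomotin, had an HTV difference of -0.51 ± 0.12 in SS lungs (limma adjusted p = 0.0246) and had -0.20 ± 0.12 in BN lungs (adjusted p = 0.405). Vgll3 and Vgll4 encode cofactors that compete with YAP for TEAD: Vgll3 had -0.89 ± 0.16 in SS (adjusted p = 0.00524) and -0.29 ± 0.16 in BN lungs (adjusted p = 0.353), and Vgll4 had -0.11 ± 0.14 in SS (adjusted p = 0.664) and -0.61 ± 0.14 in BN lungs (adjusted p = 0.0247). The sign of the HTV difference was negative in 18 of 23 genes in each strain (78.3%), against 51.5% of all genes in SS and 56.5% in BN lungs, and negative in both strains in 14 of 23 (60.9%; 36.4% of all genes). Among the kinases, Lats2, Taok1 and Map4k4 were negative in both strains, while Stk3, Stk4, Lats1 and Taok3 differed in sign between the strains. Wwtr1, Tead1 and Tead3 were also negative in both, Tead4 was positive in both and Tead2 differed in sign. Between the strains in control lungs, the upstream kinase Stk3 was higher in SS by 0.40 ± 0.12 (adjusted p = 0.045) and its relative Stk4 lower by -0.53 ± 0.10 (adjusted p = 0.00571).

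**Figure D5:**
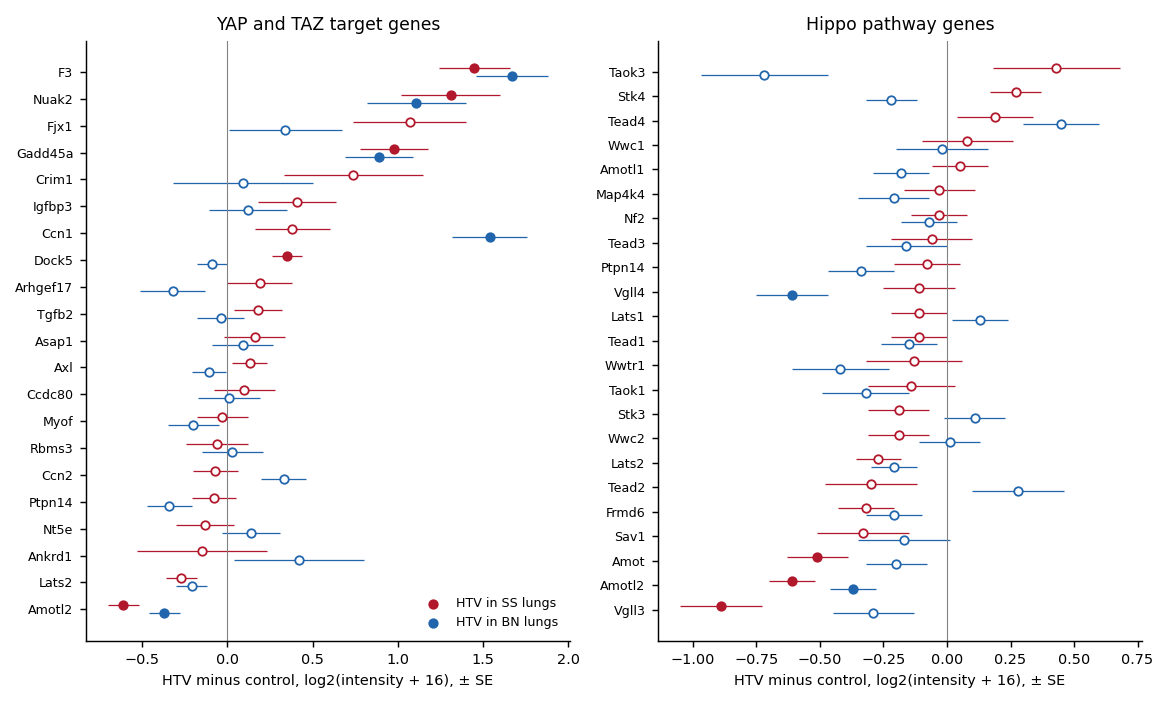
HTV minus control in log2(intensity + 16), with limma's SE as bars, for 21 YAP and TAZ targets (left) and 23 Hippo pathway genes (right), red for SS and blue for BN lungs. Filled points passed at an adjusted p below 0.05; among the targets F3, Nuak2 and Gadd45a are filled on the right side in both strains and Amotl2 on the left, and no Hippo gene is filled above 0.

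Immediate-early genes, which like Ccn1 are induced within minutes of stimulation, rose in larger numbers. In SS lungs 14 of 18 tested rose (median 1.05; 3.92% of all genes rose) and in BN lungs 16 of 18 (median 1.26; 2.99% of all genes), and 0 fell. Egr1, a zinc finger factor, differed by 2.54 ± 0.40 in SS (limma adjusted p = 0.00238) and 2.50 ± 0.40 in BN lungs (adjusted p = 0.00297). Cytoskeletal targets of serum response factor rose in 0 of 16 cases in SS lungs by limma, where 6 had an unadjusted p below 0.05 in either direction, and in 1 of 16 in BN lungs, Srf itself.

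Markers of other cells moved with HTV beside these genes. Neutrophil markers rose in 4 of 6 cases in SS and 5 of 6 in BN lungs (3.92% and 2.99% of all genes), with summed intensities of 5237.6 to 7603.1 in SS HTV and 1393.4 to 2347.0 in SS control lungs, and of 2840.2 to 8032.8 in BN HTV and 918.1 to 1600.0 in BN control lungs. No endothelial marker (0 of 9; 3 at an unadjusted p below 0.05 in SS and 1 in BN) and no type 1 cell marker (0 of 5; 2 in each strain) changed with HTV by limma. Of 7 fibroblast markers, Tcf21 fell in SS lungs (-0.78 ± 0.14, adjusted p = 0.00516) and in BN lungs (-0.61 ± 0.14, adjusted p = 0.0225), and Col1a1 fell in BN lungs (-0.62 ± 0.15, adjusted p = 0.026). Between the strains, 3 of 9 endothelial markers were lower in SS in HTV lungs (Pecam1, Vwf and Ptprb; 3.27% of all genes) and 3 of 9 in control lungs (Pecam1, Vwf and Erg; 5.16% of all genes). Of the 7 fibroblast markers, 3 were higher in SS in HTV lungs (Col1a1, Col1a2 and Col3a1; 4.01% of all genes) and 3 in control lungs (Col1a1, Col3a1 and Dcn; 5.87% of all genes). The summed endothelial intensity was 9843.2 to 11518.9 in SS HTV and 12738.1 to 13711.3 in BN HTV lungs, and 10502.6 to 10663.2 in SS control and 13023.5 to 13869.6 in BN control lungs. The part of these cells in the member differences was not tested.

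The genes whose level over the 12 arrays was most like that of Ccn1 were Jund (r = 0.979), Fmn1 (0.978), Traf6 (0.962), Cisd2 (0.959) and Myo10 (0.954), each brighter in BN lungs. The Jund probe set averaged 5.5 in SS HTV, 2.2 in SS control, 265.0 in BN HTV and 101.8 in BN control lungs. For Traf6 and Cisd2 the strain difference in control lungs was seen at the matching probe set alone: SS minus BN was -1.95 for that of Traf6, against -0.06, -0.26 and 0.03 for its 3 other probe sets, and -1.80 for that of Cisd2, against -0.06 and 0.01 for its 2 others. A second Jund probe set, in contrast, was also lower in SS control lungs, by -1.58 (limma adjusted p = 0.000852). The remaining probe sets of Jund and Myo10 fell below the filter. That of Jund averaged 2.8 in SS HTV, 6.9 in SS control, 3.3 in BN HTV and 7.1 in BN control lungs. That of Myo10 averaged 32.4, 19.3, 51.2 and 33.3 in the same order. In HTV lungs the 3 other Traf6 probe sets averaged 252.6, 131.5 and 244.3 in SS, and 253.5, 204.7 and 249.3 in BN. The 2 others of Cisd2 averaged 178.2 and 125.3 in SS HTV lungs, and 262.3 and 150.9 in BN HTV lungs. Ccn1 and Fmn1 have no other probe set to be compared in this way.

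The genes most like Ccn2 were Ccdc68 (r = 0.907), Ints7 (0.906), Pde4c (0.905), Ifnar2 (0.902) and Atp6v1a (0.901). Those most like Ankrd1 were Pln (r = 0.92), Myom2 (0.918), Glycam1 (0.916), Ints7 (0.909) and Smpx (0.906), of which Pln, Myom2 and Smpx are known as genes of heart or skeletal muscle. These correlations describe 12 arrays of 4 groups, whose group differences they share.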

How the data were processed

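Affymetrix arrays measured total RNA of 12 right lungs, 3 per group, from 6 ug of RNA each, per the labels' protocols. The authors deposited linear intensity values per probe set, made with MAS5 per the submitters' processing notes; for its version and settings nothing is given in the sources used here. Trimmed at the 2nd and 98th percentile, each array had a mean of 150.0, so values were not normalized again. Of 31099 probe sets 57 were controls, 20826 had 1 gene name in the platform annotation, 436 several and 9780 none; 0 symbols were updated through the RefSeq table of GRCr8.

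Probe sets with a mean intensity at or above the 40th percentile (43.6) were kept, 18625 in all, representing 10554 genes; a gene in a list was taken at its brightest kept probe set. The 4 group means were fitted over 12 arrays to log2(intensity + 16) with limma 3.58.1 in R 4.3.3 (lmFit, eBayes with trend), with Benjamini-Hochberg adjustment over all kept probe sets and a threshold of 0.05. The script was tested on simulated data. Precision is limited by the number of arrays.

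Every single-gene probe set of the members and the 3 other CCN genes was reported, any gene of the YAP target, Hippo and cardiac lists, up to 5 passing genes of the other lists for each HTV comparison, and the 5 genes most correlated with Ccn1, Ccn2 and Ankrd1. The genes and lists were chosen with earlier results of these data known. Alternatives were pseudocounts of 1 and 64, no filter, the 60th percentile filter, quantile normalization, median centring, no trend, array weights, only the arrays compared, the beta-actin ratio as a covariate, leaving out each array, or BN HTV 3 together with SS control 3, and, for lists, the mean of a gene's probe sets. The cardiac level, as a covariate and in correlations, was added after the data were seen.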

Additional observations from a re-analysis of the deposited data

How the results depend on the processing

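No called member difference changed direction under any of the 23 alternatives. Of 1026 recomputed member values 993 stayed on their side of the threshold, 19 lost the call and 14 gained one. Among differences that were not called, 24 of 819 values had the other sign, all at differences of at most 0.28. A change of filter or trend, or using only the arrays compared, leaves the difference itself unchanged. So does leaving out an array of a group that is not compared. The counts of direction and sign therefore include many repeated estimates, and overstate how stable the differences are. The HTV rise of Ccn1 in BN lungs, the HTV fall of Amotl2 in SS lungs and both strain differences of Ccn1 passed in every alternative.

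The member count for HTV in SS lungs (1) was 2 with quantile normalization and 2 with the beta-actin covariate, and 1 with each array left out. For HTV in BN lungs (2) it was 1 with median centring, 1 without an intensity trend, 4 without SS control 3 and BN HTV 3 together, and 1 to 3 with an array left out. For SS against BN it was 4 in control lungs (2) without those arrays and 1 to 3 with an array left out, and 2 to 5 in HTV lungs (4). Over all probe sets, the HTV count in SS lungs (1500) was 816 with only the arrays compared and 639 to 1490 with an array left out, and in BN lungs (1091) 1667 with array weights and 542 to 1463. The strain count in control lungs (2296) was 4137 with array weights, 1479 with only the arrays compared and 758 to 2323 with an array left out, and in HTV lungs (1559) 602 with the beta-actin covariate and 699 to 2216. The difference of HTV changes gave 0 to 1 probe sets, and has no value with only the arrays compared. With the mean of a gene's probe sets 3 YAP targets, not 4, rose in SS lungs, and 3, not 4, were lower in SS than in BN HTV lungs. In that fit 1 target of serum response factor, not 0, rose in SS lungs, and 0, not 1, in BN lungs. It also gave 2 endothelial markers, not 3, lower in SS in HTV lungs. In control lungs it gave 4 fibroblast markers, not 3, higher in SS and 2 Hippo genes, not 1, lower. With array weights Ccn3 in control lungs was higher in SS by 0.55 (limma adjusted p = 0.024; 0.00775 to 0.012 without SS control 3) and Tead1 1373808_at in HTV lungs lower by -0.61 (adjusted p = 0.0367). The causes of these shifts were not tested, apart from those with fewer arrays by construction. No paired analysis was possible because the groups share no replicate numbers in the labels. The number of arrays and the dim Ccn1 signal in SS lungs limit the sizes.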
